A study of Homo sapiens with 7 samples.

Results

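The loops of chromosomes 13 and 18 were taken from 7 lists of chromatin loops by the chromosome given for the first anchor of each loop. They numbered 2947 of the 135475 loops in all lists, 1642 on chromosome 13 and 1305 on chromosome 18. The lists came from HiChIP, in which neighbouring DNA ends of fixed nuclei are ligated and the products are pulled down with an antibody and sequenced from both ends, so that a loop is a pair of anchors with a count. Each of the 7 groups held 1 library, made from HEC-1-B (a cell line of human uterine adenocarcinoma) or from a derivative of that line. Unmodified (wild-type) cells were assayed with antibodies against ZNF143, CTCF and RAD21. Cells with a ZNF143 deletion (ZNF143KO) were assayed with the CTCF and the RAD21 antibody. CTCF-AID cells were assayed with the ZNF143 antibody after auxin (IAA) for 0 h and for 24 h. The AID tag marks a protein for breakdown when auxin is present, so the 0 h group also carries the tagged CTCF and is not an unmodified control. Whether a derived line was 1 clone is not given in the sources used here, and no list measured the removed protein itself.

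CTCF is a zinc-finger protein that binds DNA and halts cohesin, a ring-shaped complex that draws chromatin into loops until it meets bound CTCF. RAD21 is a core subunit of that ring. ZNF143 is a zinc-finger transcription factor that binds mostly at promoters. Chromosomes 13 and 18 are known as gene-poor human autosomes with long stretches of gene desert, late-replicating DNA between widely spaced genes.

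The label was checked against a gene table. RefSeq's table for GRCh38.p14, used for gene names only, held 338 protein-coding genes for chromosome 13 and 270 for chromosome 18. Per Mb of the extent of the lists these are 3.56 and 3.47 genes, the second lowest and the lowest of the 22 autosomes, whose median was 6.28. The lists covered chromosome 13 from 20125677 to 115106451 (95.0 Mb) and chromosome 18 from 1 to 77868273 (77.9 Mb) in hg19, the build that the submitters' processing notes name. No gene was placed on an anchor, because the gene positions at hand belong to another build.

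The 7 lists held 10804 to 40405 loops with listed totals of 33460 to 143119 counts, and counts started at 2. Such a total sums the listed loops, and the sequencing depth behind it is unknown. With 1 library per group there is no spread between replicates and no test across replicates, and the 95% intervals below cover counting error in these libraries only. The wild-type ZNF143 list and both ZNF143KO lists have a different file layout from the other 4 lists, so in the ZNF143KO comparisons the genotype and the way a list was made cannot be told apart. The same holds for the antibody when wild-type ZNF143 is set against wild-type CTCF or RAD21, and for the cell line when it is set against ZNF143 at 0 h. In the 0 h list 90.6% of the counts on chromosomes 13 and 18 were even numbers, against 68.2% in the wild-type CTCF list, so counts of the CTCF-AID lists may not be on the scale of the other lists. Where counts of both kinds are given for 1 loop, they stand side by side only.

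Loops were sparser on both chromosomes than elsewhere with every antibody, and in wild-type cells ZNF143 loops were the sparsest. In wild-type cells the ZNF143 list held 88 loops on chromosome 13 and 68 on chromosome 18, or 0.927 and 0.873 per Mb. Over both chromosomes this is 0.903 per Mb (exact Poisson interval 0.767 to 1.06), against 4.28 per Mb on the other chromosomes. The CTCF list held 318 and 236 loops, 3.35 and 3.03 per Mb, against 6.79 per Mb elsewhere. The RAD21 list held 309 and 267 loops, 3.25 and 3.43 per Mb, against 5.87 per Mb elsewhere. Chromosomes 13 and 18 thus carried 0.211 of the ZNF143 loop density of the other chromosomes, 0.472 of the CTCF density and 0.568 of the RAD21 density. Chromosome 19 alone held 24.6% of the ZNF143 loops, against 5.87% of the CTCF and 4.92% of the RAD21 loops. It thus raised the density elsewhere most for ZNF143. The medians of the 20 other autosomes were 3.15 per Mb for ZNF143, 7.18 for CTCF and 6.17 for RAD21.

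Relative to the density elsewhere, with all listed loops, ZNF143 was again the lowest and RAD21 the highest in the remaining lists. In ZNF143KO cells the density over both chromosomes was 2.58 per Mb for CTCF and 2.04 per Mb for RAD21, or 0.471 and 0.540 of the density elsewhere. In CTCF-AID cells the ZNF143 density was 3.84 per Mb at 0 h and 1.15 per Mb at 24 h, or 0.267 and 0.156 of the density elsewhere. Chromosome 19 held 19.7% and 28.5% of the loops of these 2 lists. Levels and the order of the lists depend on the minimum count, since with at least 3 counts the 0 h density was 0.960 per Mb, under the 1.54 of wild-type CTCF. A minimum count may not mean the same in these 2 lists, whose counts differ in their share of even numbers. Relative to elsewhere, the ZNF143 lists stood at 0.137 to 0.230 with at least 3 or 5 counts and the CTCF and RAD21 lists at 0.276 to 0.534. With at least 5 counts ZNF143KO RAD21, at 0.276, stood under ZNF143KO CTCF, at 0.286, so the place of RAD21 depends on the minimum count. Chromosomes 13 and 18 ranked at places 2 and 3 from the lowest among the 22 autosomes in all 7 lists, and of the autosomes chromosome 4 alone was lower, at 0.219 per Mb for wild-type ZNF143. Across the 22 autosomes the loop density followed the number of genes per Mb, with Spearman's rho from 0.817 for wild-type RAD21 to 0.901 for ZNF143KO CTCF. These rho values describe 22 points that share 1 library per list and the same chromosome lengths.

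**Figure D1:**
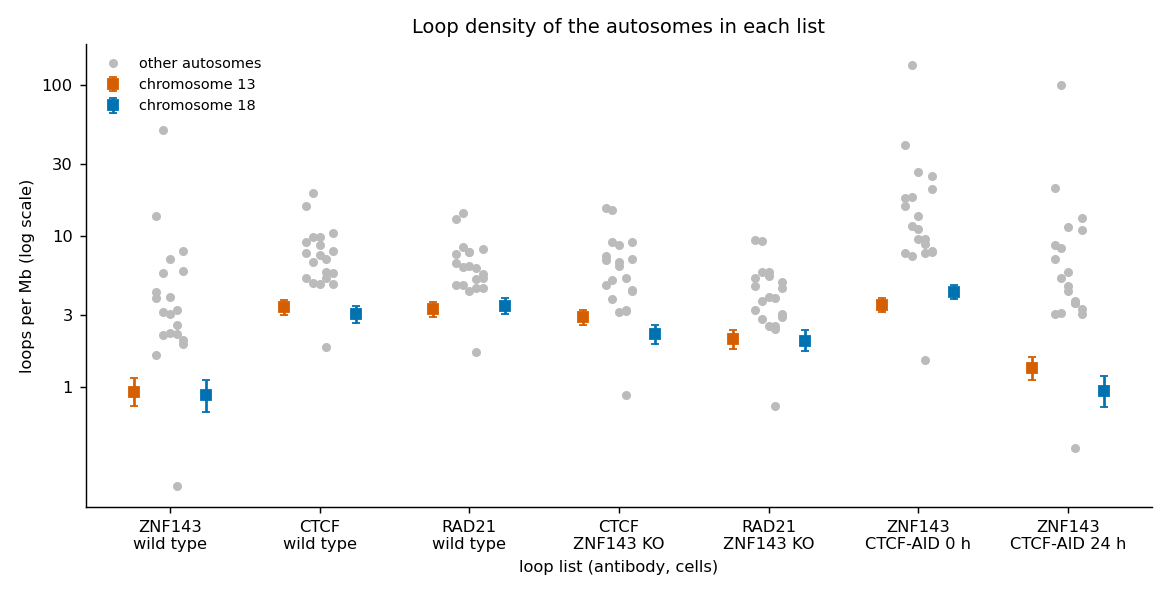
Loops per Mb on a log scale (vertical) for each of the 22 autosomes in each of the 7 lists (horizontal), with chromosomes 13 and 18 as squares with exact Poisson 95% intervals and the other autosomes as grey points. Both squares sit at the low end of every list, with 1 grey point (chromosome 4) beneath them.

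The balance between antibodies differed from that of the other chromosomes. For every CTCF loop there were 0.282 ZNF143 loops on chromosomes 13 and 18, against 0.630 elsewhere, a ratio of ratios of 0.447 (exact interval 0.371 to 0.535). Both chromosomes showed it, at 0.277 for chromosome 13 and 0.288 for chromosome 18, at places 2 and 3 from the lowest of the autosomes. The value elsewhere is raised by chromosome 19, with 2951 ZNF143 and 1134 CTCF loops. For every CTCF loop there were 1.04 RAD21 loops, against 0.864 elsewhere (ratio of ratios 1.20, 1.07 to 1.36). Chromosome 18, at 1.13, and chromosome 13, at 0.972, had the highest RAD21 to CTCF ratios of the 22 autosomes.

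Part of this balance was also found in equally sparse places elsewhere. The comparison used the 167 windows of 10 Mb on other autosomes that held no more wild-type CTCF loops than the fullest window of chromosomes 13 and 18, which had 69, a choice made after the values were seen. Those windows had 0.427 ZNF143 loops per CTCF loop, so the 2 chromosomes stood at 0.660 of them (0.545 to 0.795). Their RAD21 to CTCF ratio was 0.978, and against it the 2 chromosomes stood at 1.06 (0.939 to 1.20), an interval that includes 1.

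Few CTCF loops on chromosomes 13 and 18 had a ZNF143 loop at the same place. A loop counted as found in another list when both anchors, extended by 5 kb on each side, shared 1 bp or more with both anchors of a loop there. In wild-type cells 19 of the 554 CTCF loops (3.43%) were found in the ZNF143 list, where the share over all chromosomes was 12.8%. By contrast 253 of 554 CTCF loops (45.7%) were found in the RAD21 list, near the 46.4% over all chromosomes. In the other direction the CTCF list held 257 of the 576 RAD21 loops (44.6%), against 52.2% over all chromosomes, and the ZNF143 list held 19 of them (3.30%), against 12.3%. Among the 156 ZNF143 loops 19 (12.2%) had a CTCF counterpart and 19 a RAD21 counterpart, where the shares over all chromosomes were 19.0% and 16.3%. These shares were not compared at equal loop numbers.

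Loops held by all 3 proteins were rare. In wild-type cells 12 of 554 CTCF loops (2.17%) were found in both the RAD21 and the ZNF143 list, against 9.14% on the other chromosomes. None of the 554 was found in all 6 other lists, which allows a share of up to 0.542%, while 240 of 19313 CTCF loops of the genome (1.24%) were.

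The anchors gave the same picture as the loops. Overlapping anchors of a list were merged, which left 590 CTCF anchors, 624 RAD21 anchors and 180 ZNF143 anchors on the 2 chromosomes in wild-type cells. A ZNF143 anchor lay at 91 of the 590 CTCF anchors (15.4%), against 35.9% elsewhere, 20.5 percentage points fewer (Newcombe interval of the difference -23.3 to -17.3). A RAD21 anchor lay at 66.1% of the CTCF anchors, against 68.3% elsewhere, a difference of -2.18 points whose interval (-6.16 to 1.59) includes 0. CTCF anchors that coincided with RAD21 alone made up 53.7% of the total, against 38.8% elsewhere, and those with both other proteins 12.4%, against 29.5%. Seen from cohesin, a CTCF anchor lay at 62.5% of the RAD21 anchors, against 72.7% elsewhere.

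The 2 chromosomes differed in the company of their ZNF143 anchors. On chromosome 13, 45 of 98 ZNF143 anchors (45.9%) lay at neither a CTCF nor a RAD21 anchor, against 32.8% on the other chromosomes. On chromosome 18 that share was 34.1%, and 15 of 82 ZNF143 anchors (18.3%, Wilson interval 11.4 to 28.0) lay at a RAD21 anchor without CTCF, against 6.88% elsewhere. Chromosome 13 had 6 such anchors of 98 (6.12%).

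Loops on chromosomes 13 and 18 were longer than loops elsewhere. The median span between anchor midpoints in wild-type cells was 203 kb for ZNF143, 224 kb for CTCF and 205 kb for RAD21, against 144, 152 and 159 kb on the other chromosomes. In ZNF143KO cells the medians were 173 kb for CTCF and 191 kb for RAD21, against 120 and 141 kb. In CTCF-AID cells they were 308 kb at 0 h and 365 kb at 24 h, against 234 and 299 kb. With at least 3 or 5 counts the median was also longer than elsewhere in all 7 lists, but 0 h and 24 h then had the same median to the kb, 219 kb with 3 and 162 kb with 5. With at least 5 counts the wild-type ZNF143 median was 131 kb. In each of the 7 lists both chromosomes ranked between 19th and 22nd when the 22 autosomes were ordered from the shortest median to the longest.

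Loops of 1 Mb or more took a larger share of the wild-type lists and of the ZNF143KO CTCF list than elsewhere. Of the wild-type CTCF loops, 22 of 554 (3.97%) spanned 1 Mb or more, against 1.91% elsewhere, a difference of 2.06 points (0.707 to 4.03). Of the RAD21 loops, 29 of 576 (5.03%) did, against 2.07% elsewhere, a difference of 2.96 points (1.44 to 5.07). Of the wild-type ZNF143 loops, 8 of 156 (5.13%) did, against 2.59% elsewhere, a difference of 2.54 points (0.0153 to 7.21). For ZNF143KO CTCF the share was 3.14%, against 1.26% elsewhere (difference 1.88 points, 0.604 to 3.95). For ZNF143KO RAD21 it was 1.42%, against 1.34%, and the interval of that difference (-0.768 to 1.94) includes 0. In the 0 h ZNF143 list the share was 12.2%, against 10.4% elsewhere, and the interval of that difference (-0.460 to 4.57) includes 0. In the 24 h ZNF143 list the share was 12.1%, against 14.8% elsewhere, and the interval of that difference (-6.59 to 2.54) includes 0. Spans in the files run from 20 kb to 2 Mb, so longer contacts are not described.

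**Figure D2:**
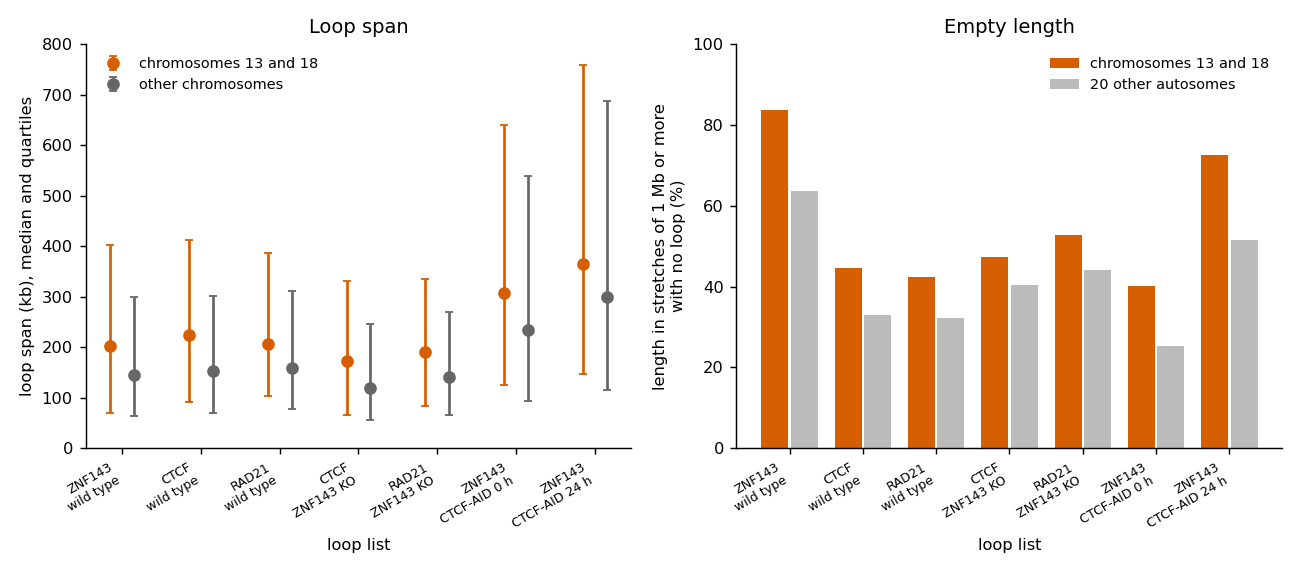
Left, median loop span in kb with the lower and upper quartiles (vertical) in each list (horizontal) for chromosomes 13 and 18 and for all other chromosomes. Right, percent of the covered length that lies in stretches of 1 Mb or more without a loop, for chromosomes 13 and 18 and for the 20 other autosomes. Medians and empty length were higher on chromosomes 13 and 18 in every list, and the empty length reached 83.6% for wild-type ZNF143.

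Anchors on these chromosomes took part in fewer loops. With the ZNF143 antibody 77.8% of the anchors in wild-type cells had 1 loop, against 56.8% elsewhere (difference 21.0 points, 14.3 to 26.5). For CTCF the share was 58.5% against 50.9%, and for RAD21 59.3% against 52.3%. In ZNF143KO cells it was 71.0% against 58.3% for CTCF and 69.9% against 63.0% for RAD21. In CTCF-AID cells it was 48.3% against 30.5% at 0 h and 55.3% against 30.1% at 24 h.

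A small number of anchors still gathered many loops, and those of ZNF143 were apart from those of CTCF and RAD21. The ZNF143 anchor with the most loops on chromosome 13, chr13:41706079-41707743, had 16 loops in wild-type cells, 11 at 0 h and 8 at 24 h of auxin, and none in any CTCF or RAD21 list. On chromosome 18 the anchor chr18:9474238-9476068 had 16, 14 and 11 ZNF143 loops and likewise none in the CTCF and RAD21 lists. The leading anchor of chromosome 13 at 0 h, chr13:25495325-25498029, which at 24 h was 1 of 2 with as many loops, had 11 loops in wild-type cells, 13 at 0 h and 10 at 24 h, again with no CTCF or RAD21 loop. The leading 0 h anchor of chromosome 18, chr18:46064264-46067154, had 9 loops in wild-type cells, 19 at 0 h and 4 at 24 h.

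The leading CTCF and RAD21 anchors carried no more than 1 ZNF143 loop in wild-type cells and no more than 4 at 0 h. The anchor chr13:46700287-46702071 led chromosome 13 in both lists, with 13 CTCF and 12 RAD21 loops in wild-type cells and 5 and 6 in ZNF143KO cells. It had no ZNF143 loop in wild-type cells, 3 at 0 h and none at 24 h. On chromosome 18 the anchor chr18:3664143-3667316 had 12 RAD21 and 7 CTCF loops in wild-type cells and 10 of each in ZNF143KO cells, with 1 ZNF143 loop in wild-type cells, 4 at 0 h and 2 at 24 h. The anchor chr18:11937132-11939009 led the CTCF list of chromosome 18 with 8 loops, and had 5 CTCF loops in ZNF143KO cells. It had 1 ZNF143 loop in wild-type cells, 4 at 0 h and none at 24 h.

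Linked loops formed small networks. When loops that share an anchor were joined, the largest wild-type ZNF143 network of the 2 chromosomes held 20 anchors and 32 loops at chr13:41343652-42791019, around the anchor named above. The largest CTCF network held 31 anchors and 42 loops at chr13:24895579-27505410, and the largest RAD21 network 24 anchors and 33 loops at chr18:19399238-21699996. In the 0 h list the largest network held 53 anchors and 79 loops at chr18:43199830-47957086. The largest networks elsewhere held 432 anchors for wild-type ZNF143, 137 for CTCF, 94 for RAD21 and 938 at 0 h.

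The ZNF143 loops with the highest counts had no counterpart in the CTCF and RAD21 lists, while 3 of the 5 highest CTCF and RAD21 loops had low counts in a ZNF143 list. On chromosome 13 the ZNF143 loop with the highest count joined chr13:41706079-41707743 to chr13:41767825-41769692, and its counts were 40 in wild-type cells, 80 at 0 h and 116 at 24 h. It was listed in no CTCF or RAD21 list. The second joined the same anchor to chr13:41836980-41838951, with counts of 14, 19 and 28, and was also absent from the CTCF and RAD21 lists. Both loops describe 1 place. Counts were higher at 24 h in the list as a whole, with a mean count per loop of 3.54 at 0 h and 5.00 at 24 h, and of 3.16 and 4.57 on the 2 chromosomes.

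On chromosome 18 both of the highest ZNF143 loops ended at the anchor chr18:9474238-9476068. The loop to chr18:9446597-9449495 was seen in wild-type cells alone, with a count of 26. The loop to chr18:9073079-9074440 had a wild-type count of 17 and a 0 h count of 12, with no entry at 24 h.

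The highest CTCF loops were also high in the RAD21 list. The loop from chr18:11937132-11939009 to chr18:11994227-11996185, 57.1 kb long, had a count of 50 in both lists. In ZNF143KO cells its counts were 9 for CTCF and 15 for RAD21, and its ZNF143 counts were 2 in wild-type cells and 6 at 0 h, with no entry at 24 h. The loop from chr18:52345945-52348414 to chr18:52649389-52651138 had counts of 23 for CTCF and 35 for RAD21 in wild-type cells and 2 and 3 in ZNF143KO cells, and no ZNF143 count in any list. On chromosome 13 the loop from chr13:112126230-112127650 to chr13:113097108-113099210, 971 kb long, had counts of 18 and 24 in wild-type cells and 4 and 3 in ZNF143KO cells. The loop from chr13:96056167-96057358 to chr13:96130336-96131554 had counts of 16 and 22 and then 5 and 4, and a ZNF143 count of 2 at 24 h. The second RAD21 loop of chromosome 18, from chr18:3593775-3595238 to chr18:3664143-3667316, had wild-type counts of 35 for RAD21 and 19 for CTCF and a count of 6 for each in ZNF143KO cells. Its ZNF143 count was 4 both at 0 h and at 24 h. Since these loops were chosen for a high count in wild-type cells, their lower counts in the second list are a description.

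Large parts of both chromosomes held no loop. For wild-type ZNF143, 26 stretches of 1 Mb or more without any loop covered 83.6% of the 2 chromosomes, against 63.7% of the 20 other autosomes. The longest ran for 23.1 Mb at chr13:53384233-76449128, followed by 16.9 Mb at chr13:78326830-95200787, and the longest of chromosome 18 ran for 12.1 Mb at chr18:47019927-59168850. For CTCF and RAD21 the empty share was 44.7% and 42.4%, against 32.9% and 32.2% elsewhere. In those 2 lists chromosome 18 was the emptier of the pair, at 53.1% and 48.8%, and chromosome 13 stood at 37.8% and 37.2%.

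Over the 2 chromosomes together the remaining lists were also emptier than elsewhere. In ZNF143KO cells the empty share was 47.2% for CTCF and 52.9% for RAD21, against 40.3% and 44.0% elsewhere. For ZNF143KO CTCF chromosome 18 carried the excess, at 57.3%. Chromosome 13 stood at 39.0%, under the value elsewhere and 11th from the emptiest of the 22 autosomes. In CTCF-AID cells the empty share was 40.1% at 0 h and 72.5% at 24 h, against 25.3% and 51.5%. At 24 h 1 empty stretch ran for 20.4 Mb at chr13:53192765-73631765. Much of it was already empty at 0 h, in stretches of 6.52, 5.27 and 4.48 Mb. With at least 3 counts the empty share was 77.6% for ZNF143KO CTCF and 77.7% at 0 h.

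Over all 7 lists together, 13 stretches with 28.9 Mb (16.7% of the length) held no loop, against 12.8% elsewhere. They took 12.4% of chromosome 13 and 22.0% of chromosome 18. The 3 longest of chromosome 13 were 3.46 Mb at chr13:54738476-58197841, 2.45 Mb at chr13:62529775-64981493 and 2.14 Mb at chr13:83332919-85469845. On chromosome 18 they were 4.71 Mb at chr18:34924035-39630921, 4.13 Mb at chr18:14419154-18550448 and 1.88 Mb at chr18:4000665-5878672. The second of these covers the centromere region of chromosome 18, where reads map poorly. Mappability was not measured, so its part in the empty length was not tested.

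Along 10 Mb windows, ZNF143 loops gathered in a few windows while CTCF and RAD21 loops were spread more widely. On chromosome 13 the window from 40 to 50 Mb held the most ZNF143 loops, 34 of 88, beside 54 CTCF and 40 RAD21 loops. The windows from 60 to 70 Mb and from 80 to 90 Mb held no ZNF143 loop, beside 16 and 3 CTCF loops and 15 and 12 RAD21 loops. On chromosome 18 the window from 40 to 50 Mb was the fullest for CTCF and RAD21, with 68 and 77 loops, but held 17 ZNF143 loops. The window from 0 to 10 Mb had 18 ZNF143 loops, the most of that chromosome, beside 25 CTCF and 39 RAD21 loops.

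In both chromosomes a long middle stretch held a smaller share of the ZNF143 loops than of the CTCF loops. These stretches were chosen after the values were seen. From 50 to 100 Mb on chromosome 13 lay 10 of the 88 ZNF143 loops (11.4%), against 101 of 318 CTCF loops (31.8%) and 113 of 309 RAD21 loops (36.6%). CTCF loops were also uneven there, with 14, 16, 25, 3 and 43 loops in its 5 windows. From 20 to 50 Mb lay 63 of the 88 ZNF143 loops (71.6%), against 162 CTCF loops (50.9%). From 10 to 40 Mb on chromosome 18 lay 7 of 68 ZNF143 loops (10.3%), against 79 of 236 CTCF loops (33.5%).

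**Figure D3:**
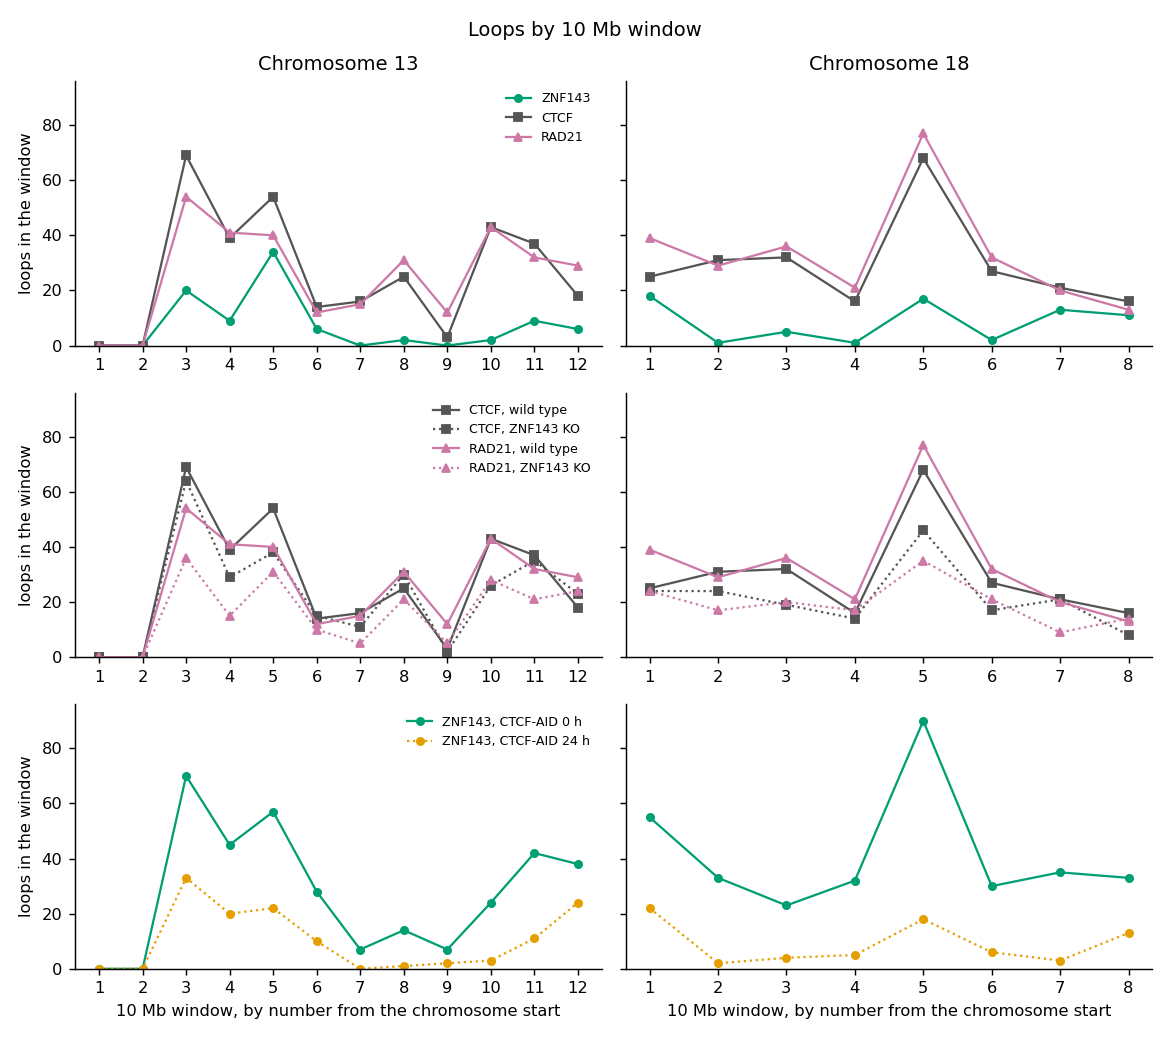
Number of loops (vertical) in each 10 Mb window, numbered from the start of the chromosome (horizontal), for chromosome 13 (left) and chromosome 18 (right), in wild-type cells (top), in wild-type and ZNF143KO cells (middle) and in CTCF-AID cells at 0 h and 24 h of auxin (bottom). CTCF and RAD21 loops peak at 69 and 77 in a window in wild-type cells and at 64 and 36 in ZNF143KO cells, wild-type ZNF143 loops number 0 to 2 in windows 7 to 10 of chromosome 13, and the 24 h line lies beneath the 0 h line in every window with loops.

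The first comparison asks what ZNF143 deletion does to CTCF and RAD21 loops on these chromosomes. The numbers of listed loops were lower in ZNF143KO cells, by about as much as elsewhere. CTCF loops went from 554 to 446, a number ratio of 0.805 (exact interval 0.709 to 0.914), against 0.808 on the other chromosomes (ratio of ratios 0.997, 0.876 to 1.13). RAD21 loops went from 576 to 353, a ratio of 0.613 (0.535 to 0.701), against 0.645 elsewhere (ratio of ratios 0.951, 0.828 to 1.09). Chromosome 13 had ratios of 0.858 for CTCF and 0.634 for RAD21, and chromosome 18 of 0.733 and 0.588, with intervals that overlap. The direction of the loop number depends on whether the lists are brought to equal listed totals. With the wild-type list thinned to the same listed total, the ratio became 1.30 for CTCF and 1.21 for RAD21. The comparison with the other chromosomes stayed at 1.02 and 0.987. A listed total is itself a sum over listed loops, so thinning to it would also remove a real loss of loops. The thinned ratios therefore do not show that ZNF143KO cells had more loops. The mean count per listed loop was 3.61 in wild-type and 2.59 in ZNF143KO cells for CTCF, and 3.90 and 2.62 for RAD21. With at least 5 counts the number ratios were 0.291 and 0.190, and for RAD21 the number ratio was then lower than elsewhere (ratio of ratios 0.556, 0.334 to 0.888).

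Fewer of the wild-type loops were found again on these chromosomes than elsewhere. Of the CTCF loops 376 of 554 were not found in the ZNF143KO list (called lost, 67.9%), against 60.9% over all chromosomes, and 178 (32.1%) were found, 7.15 points fewer than elsewhere (-11.0 to -3.09). Of the RAD21 loops 425 of 576 were lost (73.8%), against 65.9% over all chromosomes, and 151 (26.2%) were found, 8.20 points fewer than elsewhere (-11.7 to -4.39). The difference in the share found was -8.46 points for CTCF and -11.1 points for RAD21 on chromosome 13. On chromosome 18 it was -5.38 points (-11.2 to 0.909) and -4.82 points (-10.0 to 0.954), with intervals that include 0. Among the loops of ZNF143KO cells, 269 of 446 CTCF loops (60.3%) had no wild-type counterpart (called gained), against 52.9% over all chromosomes. For RAD21 204 of 353 (57.8%) were gained, against 49.1%. The excess lay on chromosome 13, where 64.8% of the CTCF and 63.3% of the RAD21 loops were gained. On chromosome 18 the gained shares were 53.2% and 51.0%, and the intervals of their difference from elsewhere include 0. Against windows of other autosomes with no more loops, chosen after the values were seen, the share found again differed by 0.382 points for CTCF (-3.57 to 4.56) and by -4.32 points for RAD21 (-7.90 to -0.442). This RAD21 difference was -7.23 points on chromosome 13 (-11.7 to -2.11) and -0.947 points on chromosome 18 (-6.20 to 4.88).

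Loops with high counts were found again more often than loops with low counts. Of the CTCF loops with a count of 10 or more, 22 of 23 were found in ZNF143KO cells (95.7%), against 89.8% elsewhere, and of those with a count of 2, 59 of 288 (20.5%), against 24.3% elsewhere. For RAD21 the numbers were 27 of 35 (77.1%), against 86.6% elsewhere, and 40 of 296 (13.5%), against 18.9% elsewhere. With a count of 5 to 9, 38 of 80 CTCF loops were found again (47.5%), against 63.3% elsewhere. For RAD21 it was 41 of 81 (50.6%), against 58.4% elsewhere. On chromosome 13, 9 of 15 RAD21 loops with a count of 10 or more were found again, and on chromosome 18, 18 of 20.

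Loops with high counts were nearly absent from the ZNF143KO lists on these chromosomes. They also became fewer on other sparse autosomes, a comparison chosen after the values were seen. CTCF loops with a count of 10 or more numbered 23 in wild-type cells and 0 in ZNF143KO cells, against 1272 and 264 elsewhere (ratio of ratios 0, upper bound 0.845). Thinning the wild-type list to the listed total of the ZNF143KO list would leave 7.88 such loops on the 2 chromosomes and 487 elsewhere, so the observed numbers were below thinning in both places. RAD21 loops with a count of 10 or more numbered 35 and 1, against 1216 and 243 elsewhere (ratio of ratios 0.143, 0.00351 to 0.860), and the thinned list would hold 8.39 on the 2 chromosomes and 337 elsewhere. With a minimum count of 5 the numbers were 103 and 30 for CTCF (ratio of ratios 0.696, 0.445 to 1.06) and 116 and 22 for RAD21. For RAD21 chromosome 13 went from 52 to 5 loops (ratio of ratios 0.282, 0.0877 to 0.704) and chromosome 18 from 64 to 17 (0.779, 0.426 to 1.35, an interval that includes 1). Loops with a count of 10 or more also went from 14 to 0 on chromosome 4 with both antibodies, and on chromosome 21 from 13 to 0 for CTCF and from 18 to 0 for RAD21. Other autosomes with a low CTCF density kept some. For CTCF they went from 42 to 6 on chromosome 10, from 46 to 2 on chromosome 8 and from 78 to 18 on chromosome 2. For RAD21 they went from 41 to 5, from 44 to 6 and from 86 to 15 on the same chromosomes. In the sparse windows of other autosomes loops with a count of 10 or more went from 315 to 44 for CTCF and from 524 to 88 for RAD21. Against these windows the interval of the 2 chromosomes includes 1 for both antibodies (CTCF 0, upper bound 1.30, and RAD21 0.170, 0.00414 to 1.04). With a minimum count of 5 it was 0.902 (0.569 to 1.39) for CTCF and 0.621 (0.371 to 0.998) for RAD21.

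CTCF loops found again lay at ZNF143 anchors more often than lost ones. Of the CTCF loops found again 43.3% had a wild-type ZNF143 anchor at one or both ends, and of the lost ones 25.3%, a difference of -18.0 points (-26.4 to -9.55), beside -14.4 points elsewhere. For RAD21 the shares were 34.4% and 26.1%, a difference of -8.32 points whose interval (-17.1 to 0.0282) includes 0, beside -14.9 points elsewhere. The RAD21 difference was -0.826 points on chromosome 13 (-12.8 to 9.28) and -14.0 points on chromosome 18 (-26.5 to -1.47). Lost loops often had no anchor left in the second list, 76 of 376 (20.2%) for CTCF, against 12.3% elsewhere, and 120 of 425 (28.2%) for RAD21, against 18.6% elsewhere.

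Of the 8 lost CTCF and RAD21 loops with the highest counts, 5 had both anchors in other loops of the ZNF143KO list. Of all lost loops of the 2 chromosomes 31.4% did for CTCF and 22.8% for RAD21, against 42.7% and 33.6% elsewhere. The lost RAD21 loop with the highest count on chromosome 13 joined chr13:95948298-95950000 to chr13:96056101-96057358, with a count of 18. Both its anchors remained in other RAD21 loops of ZNF143KO cells, and it was still listed for CTCF there, with a count of 3 against 15 in wild-type cells. On chromosome 18 the loop from chr18:56206023-56209667 to chr18:56430710-56432523 had a wild-type RAD21 count of 15, and both its anchors also remained. The lost CTCF loop with the highest count joined chr13:21516856-21518978 to chr13:21870624-21872800 with a count of 10, and again both anchors remained. Gained loops had low counts. The highest gained RAD21 loop, from chr13:31808379-31811213 to chr13:31997449-31999496, had a count of 8, but the same loop had a CTCF count of 7 in wild-type cells. The highest gained CTCF loops had a count of 6, 1 on each chromosome.

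No window stood apart in this comparison by its number ratio. In the 17 windows of 10 Mb with enough loops (at least 10 in the first list), the number ratio for CTCF ran from 0.500 to 1.28, and in 0 of 17 did its interval lie below the ratio of the whole genome, 0.808, where 7.95% of all windows did. For RAD21 the ratio ran from 0.333 to 1.08, and 0 of 18 windows lay below the genome ratio of 0.644, where 3.82% of all windows did. None of either set lay above, where 4.55% and 4.20% of all windows did. With 12 to 77 loops per window, moderate differences between windows were not detectable at this depth. The share of RAD21 loops found again varied more. It was 2 of 41 (4.88%) from 30 to 40 Mb and 0 of 12 from 80 to 90 Mb of chromosome 13. The highest share was 7 of 13 (53.8%), from 70 to 80 Mb of chromosome 18.

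**Figure D4:**
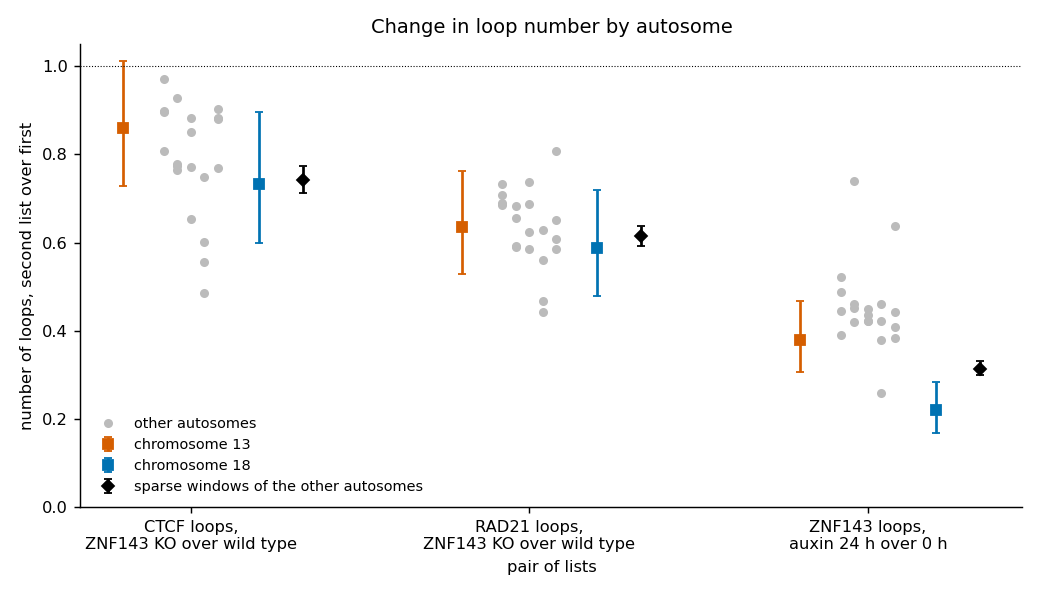
Number of loops in the second list divided by the number in the first (vertical) for 3 pairs of lists (horizontal), for each autosome, with exact 95% intervals for chromosomes 13 and 18 and for the sparse 10 Mb windows of the other autosomes. Both chromosomes lie among the others for ZNF143 deletion, and chromosome 18 is the lowest point for auxin, at 0.221, below the sparse windows at 0.315.

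The second comparison asks what CTCF depletion does to ZNF143 loops. ZNF143 loops on chromosomes 13 and 18 went from 663 at 0 h to 199 at 24 h of auxin, a number ratio of 0.300 (0.255 to 0.352), against 0.513 on the other chromosomes (ratio of ratios 0.585, 0.496 to 0.687). The number ratio was 0.458 with at least 3 counts and 0.571 with at least 5, with ratios of ratios of 0.676 (0.507 to 0.893) and 0.683 (0.450 to 1.02). Chromosome 13 went from 332 to 126 loops, a ratio of 0.380, the fourth lowest of the 22 autosomes. Chromosome 18 went from 331 to 73 loops, a ratio of 0.221, the lowest of all. The 2 chromosomes differed from each other, with 0.581 for chromosome 18 relative to chromosome 13 (0.413 to 0.815).

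Equally sparse windows elsewhere had about the same ratio as the 2 chromosomes together, while chromosome 18 alone was lower. The 157 windows of other autosomes with no more 0 h loops than the fullest window of these chromosomes, which had 90, went from 6410 to 2016 loops, a ratio of 0.315 (0.299 to 0.331). Relative to those windows the 2 chromosomes together stood at 0.954 (0.804 to 1.13), chromosome 13 at 1.21 (0.969 to 1.50) and chromosome 18 at 0.701 (0.534 to 0.911). This comparison was also chosen after the values were seen. Across the 22 autosomes the ratio followed the 0 h loop density, with Spearman's rho of 0.771 over points that share the same 2 libraries. Without chromosome 19 among the others, the ratio of ratios was 0.658 (0.558 to 0.773).

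Most 0 h loops were not listed at 24 h. Of 663 loops, 583 were lost (87.9%), against 75.3% over all chromosomes, and 80 were found again (12.1%), 12.8 points fewer than elsewhere (-15.1 to -10.1). In the sparse windows of other autosomes 12.3% were found again, 0.243 points more than on these chromosomes, and the interval of that difference includes 0. By count, 7.24% of loops with a count of 2 were found again, 15.6% of those with 3 to 4, 44.0% of those with 5 to 9 and 7 of 20 (35.0%, Wilson interval 18.1 to 56.7) of those with 10 or more. Elsewhere the shares were 15.8%, 33.6%, 51.2% and 74.0%. Of the loops with a count of 10 or more, 1 of 9 was found again on chromosome 18 (Wilson interval 1.99 to 43.5%) and 6 of 11 on chromosome 13 (28.0 to 78.7%). With a count of 5 to 9 it was 12 of 25 on chromosome 18 and 10 of 25 on chromosome 13.

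The 2 chromosomes also differed in how far the 0 h ZNF143 loops were shared with CTCF. On chromosome 13, 52 of 332 loops (15.7%) were found in the wild-type CTCF list, and on chromosome 18, 22 of 331 (6.65%), where the share over all chromosomes was 12.0%. At 24 h the numbers were 5 of 126 and 3 of 73 loops, together 4.02%, where the share over all chromosomes was 6.10%.

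Most loops new at 24 h joined anchors of the 0 h list, though less often than elsewhere. Of the 199 loops at 24 h, 119 were gained (59.8%), against 54.6% over all chromosomes, and 73 of these (61.3%, Wilson interval 52.4 to 69.6) had both anchors in the 0 h list, against 84.0% elsewhere (83.3 to 84.7). Lost loops, by contrast, had neither anchor in the 24 h list in 249 of 583 cases (42.7%), against 21.0% elsewhere.

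Lost loops lay at CTCF anchors more often than loops found again. A wild-type CTCF anchor lay at one or both ends of 65.2% of the lost loops, and of 43.8% of the loops found again, a difference of 21.4 points (9.83 to 32.4). On the other chromosomes the difference was 2.97 points (1.97 to 3.97), and in their sparse windows 10.5 points (6.91 to 14.1). The interval of the sparse windows overlaps that of the 2 chromosomes. Loops with no CTCF anchor went from 248 to 111, a ratio of 0.448. Loops with 1 went from 273 to 74, a ratio of 0.271, and loops with 2 from 142 to 14, a ratio of 0.0986 (0.0526 to 0.171).

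The step from no CTCF anchor to 2 was steeper than elsewhere. On the other chromosomes the ratios were 0.656, 0.531 and 0.374, so the 2 chromosomes stood at 0.682, 0.510 and 0.264 of them (0.140 to 0.458 for the last). In the sparse windows the ratios were 0.470, 0.303 and 0.156, and relative to these the 2 chromosomes stood at 0.953, 0.894 and 0.631 (0.331 to 1.11 for the last). Both chromosomes showed the order. The ratios were 0.593, 0.372 and 0.126 on chromosome 13 and 0.336, 0.169 and 0.0545 on chromosome 18. These classes were chosen after the values were seen, and wild-type CTCF anchors come from another list than the 2 ZNF143 lists compared.

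**Figure D5:**
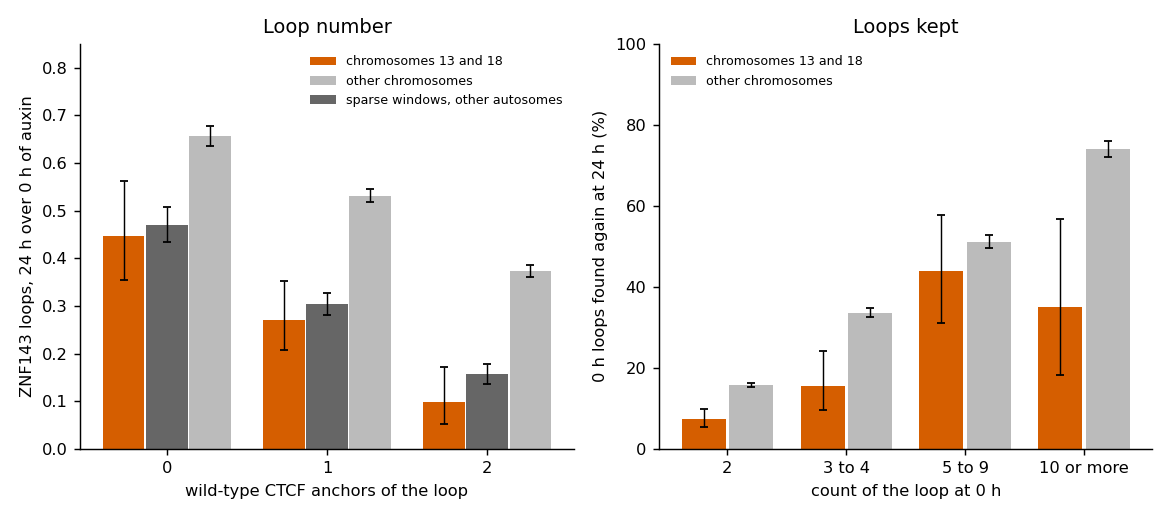
Left, ZNF143 loops at 24 h divided by those at 0 h of auxin (vertical) for loops with 0, 1 or 2 anchors at wild-type CTCF anchors (horizontal), with exact 95% intervals. Right, percent of 0 h loops found again at 24 h (vertical) by the count of the loop at 0 h (horizontal), with Wilson 95% intervals. On chromosomes 13 and 18 the number ratio runs from 0.448 to 0.0986 with more CTCF anchors, near the sparse windows and under the other chromosomes, and loops with a count of 10 or more were found again in 35.0% of cases, against 74.0% elsewhere.

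Anchors showed the same order as loops when split by CTCF alone. Of the 642 ZNF143 anchors at 0 h, 179 (27.9%) were anchors at 24 h, against 43.0% elsewhere. At a wild-type CTCF anchor the share was 22.1%, and away from one 31.9%, a difference of -9.87 points (-16.6 to -2.85), beside -0.154 points elsewhere. Anchors at a wild-type ZNF143 anchor without CTCF were found most often, 41 of 60 (68.3%), near the 70.5% elsewhere. Anchors at a CTCF anchor without wild-type ZNF143 were found in 36 of 204 cases (17.6%), against 27.9% elsewhere. Those at both were found in 22 of 59 cases (37.3%), more often than those at neither, 80 of 319 (25.1%). Elsewhere these shares were 55.8% and 31.6%. By chromosome the difference between anchors at and away from CTCF was -11.1 points on 13 (-20.6 to -1.09). On 18 it was -9.96 points, with an interval (-19.0 to 0.0944) that includes 0.

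The ratio varied along both chromosomes, but differences between stretches, which were chosen after the values were seen, were not tested. In 8 of 16 windows the interval of the number ratio lay below the genome ratio of 0.510, where 35.8% of all windows did, 6 of 8 on chromosome 18 and 2 of 8 on chromosome 13. None lay above, where 5.66% of all windows did. With windows moved by 5 Mb it was 6 of 16. From 50 to 100 Mb on chromosome 13 loops went from 80 to 16 (ratio 0.200, 0.109 to 0.345), and from 20 to 50 Mb from 172 to 75 (ratio 0.436, 0.328 to 0.575). From 100 to 120 Mb they went from 80 to 35 (ratio 0.438, 0.285 to 0.659). From 10 to 40 Mb on chromosome 18 they went from 88 to 11 (ratio 0.125, 0.0602 to 0.235), and from 0 to 10 Mb from 55 to 22 (ratio 0.400, 0.232 to 0.667). From 40 to 50 Mb of that chromosome they went from 90 to 18 (ratio 0.200, 0.113 to 0.334), and from 50 to 80 Mb from 98 to 22 (ratio 0.224, 0.135 to 0.359). A low ratio was thus found both in stretches with few wild-type ZNF143 loops and in fuller ones, such as the window from 60 to 70 Mb of chromosome 18, which held 13 of them and went from 35 to 3 after auxin.

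Of the 4 lost loops with the highest counts, 2 on each chromosome, 3 ended at one of the hub anchors chr18:9474238-9476068 and chr13:41706079-41707743, and the fourth at the hub chr13:25495325-25498029. On chromosome 18 the loops from chr18:9334075-9335725 and from chr18:9137048-9138286 to the anchor chr18:9474238-9476068 had counts of 56 and 20 at 0 h. They were listed neither at 24 h nor in wild-type cells, and neither had a CTCF or RAD21 count. That anchor still had 11 loops at 24 h, among them the gained loop with the highest count on chromosome 18, from chr18:9016619-9018197, with a count of 7. On chromosome 13 the loop from chr13:41634665-41637366 to chr13:41706079-41707743 had counts of 11 in wild-type cells and 17 at 0 h and was not listed at 24 h. At the same anchor the highest ZNF143 loop of the chromosome had its count of 116 at 24 h. The loop from chr13:25495325-25498029 to chr13:25568256-25572550 had counts of 5 in wild-type cells and 15 at 0 h and was not listed at 24 h.

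The pair with no protein removed, wild-type ZNF143 against CTCF-AID ZNF143 at 0 h, shows how far 2 lists of the same antibody differ. The 2 chromosomes went from 156 to 663 loops, a ratio of 4.25 (3.56 to 5.09), against 3.36 elsewhere. The ratio was 2.02 with at least 3 counts and 1.44 at equal listed totals, but a minimum count or a listed total may not mean the same in a wild-type and a CTCF-AID list, whose counts differ in their share of even numbers. Of the 156 wild-type loops 80 were lost (51.3%), against 40.4% over all chromosomes, and of the 663 loops 589 were gained (88.8%), against 80.6%. The share found again, 48.7%, was 11.0 points lower than elsewhere (-18.8 to -3.19), beside 7.15 and 8.20 points after ZNF143 deletion and 12.8 points after auxin. Relative to sparse windows it was 2.06 points higher (-5.92 to 10.1).

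That pair also bears on the extra ZNF143 loops at 0 h. Relative to the other chromosomes the 2 chromosomes stood at 1.26 (1.06 to 1.52), but at 0.935 with a minimum count of 3 and at 0.911 (0.759 to 1.10) against sparse windows, so the direction depends on the setting, with the same limit on the minimum count. Of the gained loops 351 of 589 (59.6%) had neither anchor in the wild-type list, against 23.7% elsewhere.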

How the data were processed

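HiChIP loop lists of 7 libraries were used, 1 per group, with groups taken from the sample titles. The authors deposited 1 list per library, and the deposited value of a loop is a whole-number count. The submitters' processing notes name HiC-Pro and the build hg19. The loop caller, its filters and any pooling of runs are not given in the sources used here. All columns used belonged to samples of the series.

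Loops were selected by chromosome, density was taken per Mb between the lowest and the highest anchor of all 7 lists, and a loop was placed in a 10 Mb window by the middle of its span. Matching used anchors of the first list extended by 5 kb. Shares carry Wilson intervals, differences Newcombe intervals, densities exact Poisson intervals, number ratios exact binomial intervals and ratios of ratios exact conditional intervals, all at 95%. PCR copies and loops that share anchors are not independent, so the intervals cover counting error only. The functions were tested on simulated lists. Python 3.11.15, numpy 2.4.6, pandas 2.3.3, scipy 1.17.1 and matplotlib 3.10.9 were used.

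Named were, on each chromosome, the 2 loops with the highest count in each wild-type list, the 2 lost and 2 gained loops with the highest count in each pair (ties to the shorter span), the anchor with the most loops, and the 3 longest stretches without a loop in any list, and the text gives those the results turn on. The members, rules and comparisons were chosen with earlier results of these data known. Alternatives were other minimum counts, spans, lengths, anchor extensions, window positions and equal listed totals. A planned list of genes was not used, because no annotation of the build of the lists was at hand, and for the same reason no sequence is shown.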

Additional observations from a re-analysis of the deposited data

How the results depend on the processing

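Of 109 values recomputed for chromosomes 13 and 18 under other settings, 46 stayed within their interval or tolerance, 59 moved beyond it and 4 changed direction. The number of loops per list and its length in empty stretches depend on the minimum count, since 47.4% or more of the loops of each list had a count of 2. No paired analysis was possible because each group holds 1 library and no result comes from a test across replicates, and for the same reason no library was left out. Depth limits single windows and loops with high counts, which rest on few loops.

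With at least 3 counts the density per Mb was 0.474 (wild-type ZNF143), 1.54 (CTCF), 1.62 (RAD21), 0.833 (ZNF143KO CTCF), 0.671 (ZNF143KO RAD21), 0.960 (0 h) and 0.440 (24 h). In the same order it was 0.179, 0.596, 0.671, 0.174, 0.127, 0.405 and 0.231 with at least 5 counts, and 0.752, 2.78, 2.90, 2.16, 1.78, 3.12 and 0.949 with spans of 40 kb to 1 Mb. With the length counted from coordinate 1 it was 2.87, 2.98, 2.31, 1.83 and 3.44 for CTCF, RAD21, ZNF143KO CTCF, ZNF143KO RAD21 and 0 h.

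The number ratio of the pairs (CTCF, RAD21, auxin, wild-type to 0 h ZNF143) was 0.541, 0.414, 0.458 and 2.02 with at least 3 counts and 0.291, 0.190, 0.571 and 2.26 with at least 5. At equal listed totals it was 1.30, 1.21, 0.425 and 1.44, which turns the direction for CTCF and RAD21. A listed total is itself a sum over listed loops, so this setting cannot tell a loss of loops from a lower depth.

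Relative to the other chromosomes, the ratio with at least 5 counts was 0.696 for CTCF, 0.556 for RAD21 and 1.01 for wild-type to 0 h ZNF143. The last was 0.935 with at least 3 counts. Against sparse windows, an alternative chosen after seeing the data, it was 0.954 for auxin and 0.911 for wild-type to 0 h ZNF143. The cause was not tested.

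The share found again with at least 3 counts was 25.9% for CTCF, 21.4% for RAD21 and 18.7% after auxin. The median span with at least 3 counts was 191 kb for CTCF and 219 kb at both 0 h and 24 h. With at least 5 counts it was 131 kb for ZNF143, 189 kb for CTCF, 167 kb for RAD21, 217 kb for ZNF143KO RAD21, 162 kb at 0 h and 162 kb at 24 h. The empty share with at least 3 counts was 92.5%, 67.9%, 63.5%, 77.6%, 79.7%, 77.7% and 88.1% in the order of lists above.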
